A study of Drosophila melanogaster with 16 samples.

Results

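Glutathione S-transferases (GSTs) are enzymes that join the tripeptide glutathione to reactive or foreign compounds, and several of them also reduce peroxides, so they belong to the redox metabolism of a cell. The 35 genes described here are all rows of the expression table whose symbol is Gst, a class letter among D, E, O, S, T and Z, and a number, out of 16727 genes. The classes held 11 delta genes (GstD), 14 epsilon genes (GstE), 3 omega genes (GstO), 1 sigma gene (GstS1), 4 theta genes (GstT) and 2 zeta genes (GstZ). Of these, 27 reached a mean of 10 normalised counts over all libraries and were tested among 7824 genes. The other 8 are described by their values.

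Delta and epsilon GSTs are the classes that expanded in insects, and they are best known for the breakdown of insecticides and plant toxins. Sigma, omega, theta and zeta GSTs have relatives in vertebrates. The larval fat body, which stores fat and protein and secretes blood proteins much as liver and adipose tissue do in mammals, is a main site of detoxification, and GstD1 is widely used as a reporter of the oxidative stress response driven by the transcription factor Cnc and its inhibitor Keap1.

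Total RNA was sequenced from female Drosophila melanogaster larvae taken as the last larval stage turns into prepupa, from a balanced stock that carries a knock-out of dLmx1a, a LIM homeodomain transcription factor. The 4 groups, named here as their titles name them, were Homoz FB+ovaries, Het FB+ovaries, Homoz FB and Het FB, where FB is the larval fat body and FB+ovaries is fat body with the ovaries that lie in it. Each group had 4 libraries, numbered as replicates 1 to 4. Het animals carried dLmx1a delta1 over the third-chromosome balancer TM3-GFP, and Homoz animals were picked by its absence, so that every animal carried a mutant allele, and absence of the balancer cannot be told apart from the second mutant copy. The genotype field of the Homoz samples gives each one another allele number, delta1 to delta8, so the titles were used for grouping. The labels do not say whether libraries came from separate animals, and p-values therefore cover only library-to-library spread, which may be technical.

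The libraries held 19022106 to 32755588 reads on genes, with a read on 10105 to 10970 genes. Fat body storage protein and Fbp genes, 6 in all, made up 49.7 to 58.7% of the counts, and the 6 germline markers examined were called higher with ovaries in both genotypes. RNA of dLmx1a (CG32105, arm 3L) stood at 564 to 742 normalised counts in Homoz FB+ovaries and 518 to 723 in Het FB+ovaries libraries, so its level did not separate the genotypes. A count over the whole gene checks nothing if the lesion removes little of the transcript, and Homoz is used here as the title of a group. A pair of FB libraries stood apart before any test. Homoz FB replicate 1 lay at 59.3 on the second principal component, against -33.3 to 15.7 in the other FB libraries, and Het FB replicate 2 had a germline marker sum of 128 normalised counts, against at most 27.5 in the other FB libraries. Salivary glue transcripts summed to 1802 in Homoz FB+ovaries replicate 2 and to at most 125 in any other library. GST calls that changed without the pair of FB libraries are given with the comparisons.

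GST transcripts made up a small and similar share of the counts in each group. The share averaged 0.198 ± 0.0472% in Homoz FB+ovaries, 0.190 ± 0.0353% in Het FB+ovaries, 0.199 ± 0.0409% in Homoz FB and 0.195 ± 0.0291% in Het FB libraries (SD, n = 4 each). The summed GST level on the deposited scaling, which the folds below use, was lower with ovaries. It averaged 44527 ± 9957 in Homoz FB+ovaries and 41101 ± 7326 in Het FB+ovaries libraries. In FB it averaged 60510 ± 10936 in Homoz and 55292.5 ± 9176 in Het libraries. Levels between genes are compared as mean normalised counts per kilobase of coding length over the 16 libraries. On that scale GstD1, which can break down the insecticide DDT, was the highest at 20186, followed by GstE12 at 13331, GstS1 at 11550 and GstE3 at 6278. GstS1, the single sigma GST of the fly, is known for the removal of lipid peroxidation products. These 4 genes carried 68.3% of all GST counts. GstE7 (4166), GstD10 (3808), GstO3 (3512), GstT1 (2837) and GstT4 (2332) followed, and the lowest tested genes were GstO1 (20.7) and GstE5 (20.7). The delta class alone spanned this scale from GstD1 down to GstD8 and GstD11, near 1.

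**Figure D1:**
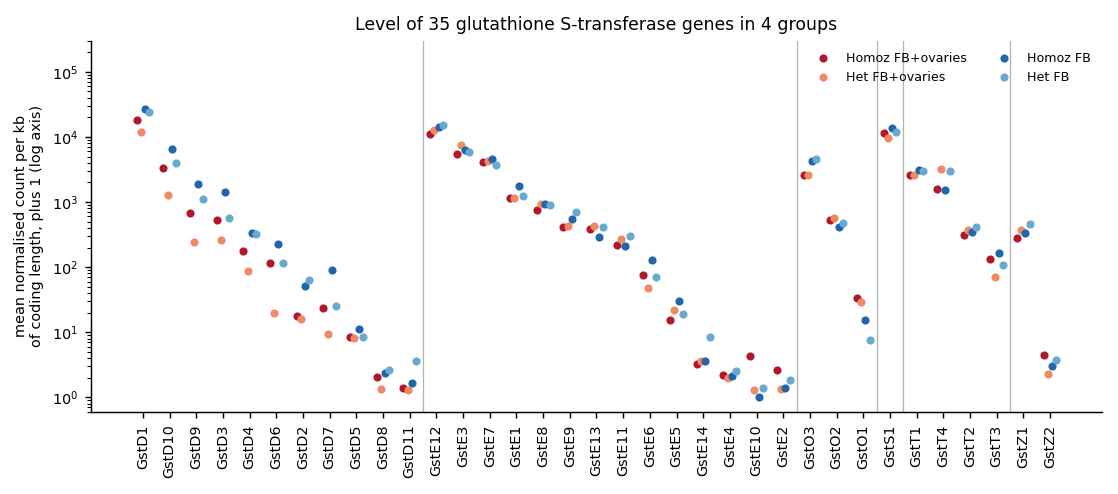
Mean normalised count per kilobase of coding length plus 1 (log axis) of the 35 GST genes in the 4 groups, sorted by class and level. Each dot is the mean of 4 libraries. GstD1, GstE12 and GstS1 lie at the top in every group, and the lowest genes are GstD8, GstD11, GstE2, GstE4, GstE10 and GstZ2.

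The genes lie mostly in clusters of neighbours, with coordinates given on the dm6 assembly. The 11 GstD genes sit together on arm 3R between 12364776 and 12385624, a stretch of 20849 bases, and all but GstD11 have their coding sequence in 1 exon. A row of 10 GstE genes (GstE1 to GstE10) occupies 13198 bases of arm 2R between 18396638 and 18409835, and the 3 GstO genes occupy 5982 bases of arm 3L between 8518885 and 8524866. Neighbours within a cluster differed widely in level. GstE3 averaged 4144 normalised counts, while GstE2 averaged 0.530 and GstE4 averaged 0.811, although they lie on either side of it. GstD1 averaged 12656.5 and GstD8, in the same cluster, 0.704. The labels do not state how reads with several hits or strand were handled. Counts of closely related genes in the GstD and GstE clusters are therefore uncertain, as are those of GstE10 and GstE1, which share 127 bases on opposite strands, and of GstT2, which shares 223 bases with CG12926.

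The 8 genes below the filter were at or near 0. GstE14, also called noppera-bo, is needed for the synthesis of the moulting hormone ecdysone in the prothoracic gland, and it stood at 1.15 to 1.91 normalised counts in Homoz FB+ovaries, 0.830 to 4.59 in Het FB+ovaries, 0.974 to 3.64 in Homoz FB and 1.11 to 8.49 in Het FB libraries. GstD5 reached 14.3 in 1 library and had a read in 15 of 16. GstZ2 had a read in 11 libraries, GstE4 and GstD8 in 8, GstE2 in 7, GstD11 in 6 and GstE10 in 5, and the highest value among these 6 genes was 6.28. A listed 0 allows up to 3 reads, which is 2.34 to 4.59 normalised counts depending on the library, for counting error only.

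The first comparison asks how GST transcripts differ between FB+ovaries and FB. GstD4 was lower in FB+ovaries and GstO1 was higher, in both genotypes. Of the 8 tested GstD genes, GstD3 and GstD4 were lower in Homoz libraries and GstD1, GstD4, GstD9 and GstD10 in Het libraries. In Homoz libraries 7 of the 27 genes passed an adjusted p of 0.05 (limma on log2 of the normalised count plus 1, Benjamini-Hochberg over all 7824 genes), 3 higher and 4 lower, where 33% of all genes passed, 19.8% higher and 13.2% lower. In Het libraries 8 passed, 1 higher and 7 lower, where 29.3% of all genes passed, 18.6% higher and 10.7% lower. The shares called in both directions together are thus near those of all genes, and 1 gene of 27 was higher in Het libraries. The values of FB+ovaries and FB did not overlap for 4 genes in Homoz libraries, against 27% of all genes, and for 12 genes in Het libraries, against 32.9%. In a mixed tissue, fewer cells of a type and less RNA per cell cannot be told apart. The 6 fat body markers had a median log2 fold of -0.50 in Homoz and -0.49 in Het libraries with none called. Among markers of other cells, btl of the trachea had log2 folds of -0.78 in Homoz and -1.18 in Het libraries, and 1 of 3 tracheal markers was called lower in each. Of the 6 genes listed as hemocyte markers, Cg25C was lower (-0.68 in Homoz, -0.63 in Het) and Pxn higher (1.77 in Homoz, 1.53 in Het). Hml, NimC1, eater and He were not called in either genotype. Whether Cg25C is read only from hemocytes in these libraries was not tested. Of the 6 muscle markers, Mhc was lower in Homoz libraries (-0.97) and none was called in Het libraries. The part of these tissues in the GST folds was not tested.

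GstD1, the most abundant GST, stood at 8434, 4901, 7934 and 8352 normalised counts in the 4 Het FB+ovaries libraries, against 16428, 9842, 17173 and 16538 in the 4 Het FB libraries. Replicate 2 was the lowest on both sides, and the groups did not overlap. Its log2 fold was -1.02 ± 0.28 (SE, adjusted p = 0.0125). GstD4 stood at 70.4, 52.4, 51.5 and 51.4 in Het FB+ovaries, against 326, 144, 172 and 185 in Het FB libraries. All 4 libraries with ovaries lay below every FB library, and the log2 fold was -1.80 ± 0.36 (adjusted p = 0.00171). GstD10 stood at 1135, 397, 505 and 1180.1 in Het FB+ovaries, against 4040.2, 1428, 1726 and 2999 in Het FB libraries, with no overlap and a log2 fold of -1.70 ± 0.60 (adjusted p = 0.0466). GstD9, its neighbour, stood at 227, 85.9, 87.2 and 227 in Het FB+ovaries, against 847, 409, 682 and 1019.8 in Het FB libraries. These groups did not overlap either, and the log2 fold of GstD9 was -2.31 ± 0.74 (adjusted p = 0.0291).

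In Homoz libraries the called delta genes were GstD4 and GstD3. GstD4 stood at 220.1, 64.2, 71.0 and 103 in Homoz FB+ovaries, against 304, 124, 208 and 239.6 in Homoz FB libraries, a log2 fold of -1.04 ± 0.36 (adjusted p = 0.0401). GstD3 stood at 412, 128, 446 and 279 in Homoz FB+ovaries, against 912, 334, 1370.1 and 729.7 in Homoz FB libraries, a log2 fold of -1.38 ± 0.48 (adjusted p = 0.0394). Both pairs of groups overlapped, since replicate 1 with ovaries exceeded FB replicates 2 and 3 for GstD4, and replicates 1 and 3 with ovaries exceeded FB replicate 2 for GstD3. GstD1 averaged 11229 ± 3740 in Homoz FB+ovaries and 16996 ± 4954 in Homoz FB libraries (SD, n = 4 each), a log2 fold of -0.61 ± 0.28 that did not pass (adjusted p = 0.103).

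All 8 tested GstD genes had a negative fold in both genotypes, with a median log2 fold of -1.03 in Homoz and -1.75 in Het libraries, beside -0.05 over all genes in each. Within replicate numbers, 7 of the 8 genes were lower with ovaries in all 4 pairs, in Homoz and in Het libraries alike. The share of all genes lower in all 4 pairs was not computed. The 8 genes lie in 1 cluster and shifted together between libraries, so they are not separate results. In Het libraries same-numbered pairs did not meet the rule for pairing. Replicate numbers paired the Homoz libraries, since same-numbered libraries deviated together. The block used here and below was 1 effect per replicate number shared by all 4 groups, the Het tissue pairs included. With replicate number as a block, 16 GST genes passed in Homoz libraries, 13 of them lower, where 48% of all genes passed and 23.9% were lower. These included GstD1 (adjusted p = 0.0017), GstD10 (0.0024), GstD9 (0.0062), GstD2 (0.0411), GstD3 (0.000256) and GstD4 (0.000996). Scaling every library to the same total moved the median fold of all genes to 0.37 in Homoz and 0.34 in Het libraries. All 8 GstD folds stayed negative under that scaling, with the median at -0.60 in Homoz and -1.36 in Het libraries, but GstD9 and GstD4 in Het libraries were then the only delta calls. Relative to the median of all genes, the GstD median was -0.98 with the deposited scaling and -0.97 with equal totals in Homoz libraries, and -1.70 with either in Het libraries. Equal totals shift the log2 folds of all genes nearly alike within a contrast. Agreement of such relative values between scalings, here and below, is therefore fixed in advance and is no test of the scaling. Without Homoz FB replicate 1 and Het FB replicate 2, 6 of 8 GstD folds were negative in Homoz libraries and none passed, while all 8 stayed negative in Het libraries and 5 passed.

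**Figure D2:**
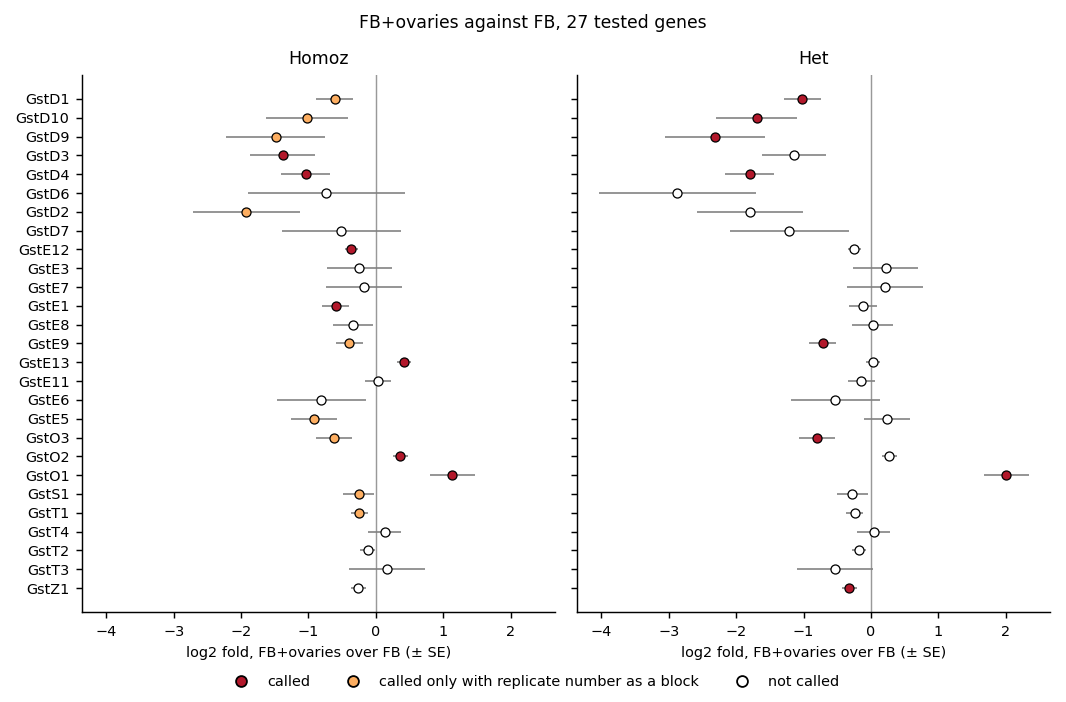
Log2 fold of FB+ovaries over FB (± SE) for the 27 tested genes, in Homoz libraries on the left and Het libraries on the right. Filled red points passed an adjusted p of 0.05, and orange points in the Homoz panel passed with replicate number as a block. The 8 GstD genes lie below 0 in both panels and GstO1 lies above 0.

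GstO1 was the GST with the largest positive fold. Omega GSTs carry a cysteine at the active site and act as thiol transferases and dehydroascorbate reductases. GstO1 stood at 29.5, 20.6, 25.0 and 25.9 normalised counts in Homoz FB+ovaries, against 12.2, 12.1, 7.80 and 12.0 in Homoz FB libraries, a log2 fold of 1.13 ± 0.34 (adjusted p = 0.018). In Het FB+ovaries it stood at 26.1, 13.8, 19.9 and 27.6, against 9.43, 4.09, 4.46 and 2.15 in Het FB libraries, a log2 fold of 2.01 ± 0.34 (adjusted p = 0.000359). Neither pair of groups overlapped, and GstO1 and GstD4 were the 2 genes called in both genotypes. GstO2 stood at 444, 419, 402 and 344 in Homoz FB+ovaries, against 378, 302, 269.9 and 302 in Homoz FB libraries. Replicate 4 with ovaries lay below FB replicate 1, and the log2 fold was 0.36 ± 0.11 (adjusted p = 0.0169). GstO3, the most abundant omega gene, stood at 1785, 1795, 2087 and 1797 in Het FB+ovaries, against 2126, 3429.9, 4235 and 3563 in Het FB libraries, a log2 fold of -0.80 ± 0.27 with no overlap (adjusted p = 0.0377). In the other genotype GstO2 had a log2 fold of 0.28 ± 0.11 in Het libraries (adjusted p = 0.0657) and GstO3 of -0.62 ± 0.27 in Homoz libraries (adjusted p = 0.0904), neither past the threshold. The call of GstO3 in Het libraries ended at equal totals with a fold of -0.41. Relative to the median of all genes it was -0.75 with either scaling.

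Of the 10 tested epsilon genes, 3 were called in Homoz libraries and 1 in Het libraries. GstE13, which lies on arm 2R away from the cluster, stood at 278, 238, 278 and 236 in Homoz FB+ovaries, against 214, 211, 169 and 179 in Homoz FB libraries, a log2 fold of 0.42 ± 0.11 with no overlap (adjusted p = 0.0086). GstE1 stood at 818, 601, 846 and 863 in Homoz FB+ovaries, against 1224, 1051, 1309 and 1123 in Homoz FB libraries, a log2 fold of -0.60 ± 0.21 with no overlap (adjusted p = 0.0379). GstE12 averaged 7499.9 ± 834 in Homoz FB+ovaries and 9665 ± 1164 in Homoz FB libraries (SD, n = 4 each), a log2 fold of -0.36 ± 0.10 with overlap (adjusted p = 0.0092). At equal totals this fold was 0.07, and relative to the median of all genes it was -0.31 with either scaling. In Het libraries the epsilon call was GstE9, at 311, 261, 225 and 328 with ovaries, against 524, 466, 408 and 436 in FB, a log2 fold of -0.71 ± 0.20 with no overlap (adjusted p = 0.0154). Its call ended at equal totals, with a fold of -0.32, as did that of GstE1 in Homoz libraries, with a fold of -0.17. Relative to the median of all genes, GstE9 was -0.67 with the deposited scaling and -0.66 with equal totals, and GstE1 was -0.54 with either. GstE3 and GstE7, the most abundant genes of the epsilon cluster, spread more within groups than between them. GstE3 averaged 3656 ± 1830 in Homoz FB+ovaries and 4139.8 ± 1350 in Homoz FB libraries (SD, n = 4 each), a log2 fold of -0.24 ± 0.48 with a 95% interval from -1.28 to 0.79.

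The other epsilon genes were not called in either genotype. GstE5, the lowest tested epsilon gene, stood at 11.4, 6.87, 9.36 and 11.0 in Homoz FB+ovaries, against 24.5, 18.2, 12.7 and 22.0 in Homoz FB libraries. These groups did not overlap and the log2 fold was -0.91 ± 0.34, just short of the threshold (adjusted p = 0.0509). GstE7 ran from 997 to 5548 in Homoz FB+ovaries and from 1217 to 5089.7 in Homoz FB libraries, a 5.57-fold and a 4.18-fold range within a group, and GstE6 had an 8.45-fold and an 8.01-fold range. GstE12, by contrast, kept within a 1.34-fold range in each of the 4 groups. The log2 folds of GstE6, GstE7, GstE8 and GstE11 lay between -0.81 and 0.21 over both genotypes, each with a 95% interval that included 0.

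In Het libraries, 4 further genes did not overlap between tissues although they were not called. GstD6 stood at 28.2, 3.44, 1.66 and 14.7 in Het FB+ovaries, against 159, 48.1, 31.2 and 60.2 in Het FB libraries (log2 fold -2.87 ± 1.17, adjusted p = 0.0776). GstD7 ran from 5.16 to 6.03 with ovaries and from 7.80 to 31.1 without (log2 fold -1.21 ± 0.88, adjusted p = 0.321). GstE12 averaged 8458.5 ± 277 with ovaries and 10050.5 ± 517 without (SD, n = 4 each), a log2 fold of -0.25 ± 0.10 (adjusted p = 0.0656), and GstO2 averaged 430.1 ± 17.0 with ovaries and 356 ± 29.9 without, a log2 fold of 0.28 ± 0.11 (adjusted p = 0.0657).

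GstZ1 belongs to the zeta class, which isomerises maleylacetoacetate in the breakdown of tyrosine. It stood at 250.4, 265, 282 and 280.1 in Het FB+ovaries, against 293, 323, 354 and 380.4 in Het FB libraries, a log2 fold of -0.32 ± 0.11 with no overlap (adjusted p = 0.0391). At equal totals this fold was 0.07, and relative to the median of all genes it was -0.28 with the deposited scaling and -0.27 with equal totals. GstS1 ran from 6029 to 9771 in Homoz FB+ovaries and from 7094 to 12539.9 in Homoz FB libraries. GstT1 ran from 1384 to 2016 in Homoz FB+ovaries and from 1701 to 2316 in Homoz FB libraries. GstS1 and the theta genes GstT1, GstT2, GstT3 and GstT4 did not pass in either genotype, with log2 folds between -0.53 and 0.17. With replicate number as a block, GstS1 (log2 fold -0.26 ± 0.07, adjusted p = 0.0092) and GstT1 (log2 fold -0.24 ± 0.07, adjusted p = 0.0131) passed in Homoz libraries.

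Without Homoz FB replicate 1 and Het FB replicate 2 together, GstD3, GstD4 and GstE1 (adjusted p = 0.0567) lost their call in Homoz libraries and GstO3 and GstT1 gained one, both lower. In Het libraries GstZ1 lost its call (adjusted p = 0.0502) and GstD6 and GstE12 gained one, both lower. Several calls also depended on single libraries. Of the 15 tissue calls, those of GstD1, GstD4 and GstO1 in Het libraries and of GstE12 and GstE13 in Homoz libraries held whichever 1 of the 16 libraries was left out. In Het libraries, the call of GstD9 ended without replicate 2 or 3 with ovaries or FB replicate 1, 3 or 4 (adjusted p up to 0.083). The call of GstD10 ended without those libraries and also without replicate 3 or 4 of either Homoz group (up to 0.119), and that of GstE9 without replicate 3 with ovaries (0.0563). The calls of GstO3 (up to 0.113) and GstZ1 (up to 0.122) ended without any 1 library with ovaries and without FB replicate 2, 3 or 4. In Homoz libraries, the call of GstE1 ended without replicate 1, 2 or 3 with ovaries or FB replicate 1, 3 or 4 (up to 0.103). Those of GstD3 (up to 0.126) and GstD4 (up to 0.116) ended without replicate 2 or 4 with ovaries, FB replicate 1, 3 or 4, or Het FB+ovaries replicate 3. GstD4 also lost its call without replicate 3 with ovaries or Het FB replicate 4. GstO2 lost its call without replicate 1 with ovaries or FB replicate 3 (up to 0.0608), and GstO1 without FB replicate 3 (0.0579). The number called in Homoz libraries was 3 without FB replicate 3 and 4 without FB replicate 4. In Het libraries it was 3 without replicate 3 with ovaries and 4 without replicate 2 with ovaries, FB replicate 3 or FB replicate 4.

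The second comparison asks how GST transcripts differ between Homoz and Het libraries, the other contrast of the study's design. GstT4, GstE13 and GstZ1 were lower in Homoz FB than in Het FB libraries. These 3 of 27 genes passed, all lower, where 5.39% of all genes passed and 3.11% were lower. GstT4, a theta gene on the X chromosome, stood at 1715, 799, 766 and 1077 in Homoz FB, against 2361, 1881, 2116 and 2210.4 in Het FB libraries. Every Homoz FB library lay below every Het FB library, and the log2 fold was -1.05 ± 0.24 (adjusted p = 0.0214). GstE13 stood at 214, 211, 169 and 179 in Homoz FB, against 275, 249.7, 284 and 321 in Het FB libraries, a log2 fold of -0.55 ± 0.11 with no overlap (adjusted p = 0.0095). GstZ1 stood at 233, 214, 264 and 266 in Homoz FB, against 293, 323, 354 and 380.4 in Het FB libraries, a log2 fold of -0.47 ± 0.11 with no overlap (adjusted p = 0.0241). In all, 4 genes did not overlap between Homoz FB and Het FB, against 9.55% of all genes, and the one not called was GstE11 (log2 fold -0.53 ± 0.20, adjusted p = 0.142). Muscle markers summed to 65.3 to 541 in Homoz FB and 416 to 734 in Het FB libraries, and to 60.1 to 149 in Homoz FB+ovaries and 457 to 499.8 in Het FB+ovaries libraries. Of the 6 tested, Mlc2 was the 1 called, with log2 folds of -4.06 in FB+ovaries and -3.78 in FB. The median log2 fold of the 6 was -0.14 in FB+ovaries and 0.39 in FB, where Mhc (0.55), Act57B (0.97), Tm2 (0.50) and up (0.27) had positive folds. Fas3 was the 1 of 6 ovarian soma markers called between genotypes, higher in Homoz FB+ovaries by 1.60. The part of either tissue in the GST folds was not tested.

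GstT2 had a log2 fold of -0.28 ± 0.11 (adjusted p = 0.163) in FB and passed at equal totals. GstE1 lay on the other side, at 1224, 1051, 1309 and 1123 in Homoz FB, against 799.9, 676, 1169.8 and 676 in Het FB libraries. Het FB replicate 3 lay within the Homoz range, and the log2 fold of GstE1 was 0.54 ± 0.21 (adjusted p = 0.160). GstS1 and GstT1, among the most abundant members, had log2 folds of 0.21 ± 0.23 and 0.03 ± 0.13, with 95% intervals from -0.28 to 0.70 and from -0.25 to 0.30.

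All 3 calls kept their direction at equal totals, which moved the median of all genes to -0.11 in this comparison. The call of GstE13 held whichever 1 library was left out. That of GstT4 ended without Homoz FB replicate 2 or 3 or Het FB replicate 3 or 4 (adjusted p up to 0.0713), and that of GstZ1 without Homoz FB replicate 2 or Het FB replicate 3 or 4 (up to 0.0824). The count was 1 without Homoz FB replicate 2, Het FB replicate 3 or Het FB replicate 4. Without Homoz FB replicate 1 and Het FB replicate 2 together, GstE13 and GstT4 remained called. When only these 8 libraries entered the fit, none of the 3 passed.

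With replicate number as a block, 5 genes passed between Homoz FB and Het FB, where 15.1% of all genes did. GstT4 (adjusted p = 0.0024), GstE13 (0.0064) and GstZ1 (0.0124) were again lower, and GstD3 and GstO1 were higher. GstD3 stood at 912, 334, 1370.1 and 729.7 in Homoz FB, against 294, 197, 446 and 395 in Het FB libraries. It was higher in all 4 same-numbered pairs although the groups overlapped, and its log2 fold of 1.22 had an SE of 0.21 with the block (adjusted p = 0.0030) and of 0.48 without it (adjusted p = 0.169). DESeq2, without a block, also called GstD3 higher (log2 fold 1.33 ± 0.46, adjusted p = 0.0437), and edgeR did not (adjusted p = 0.120). GstO1 had a log2 fold of 1.11 ± 0.32 with the block (adjusted p = 0.0367), and its adjusted p was 0.0718 without it.

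**Figure D3:**
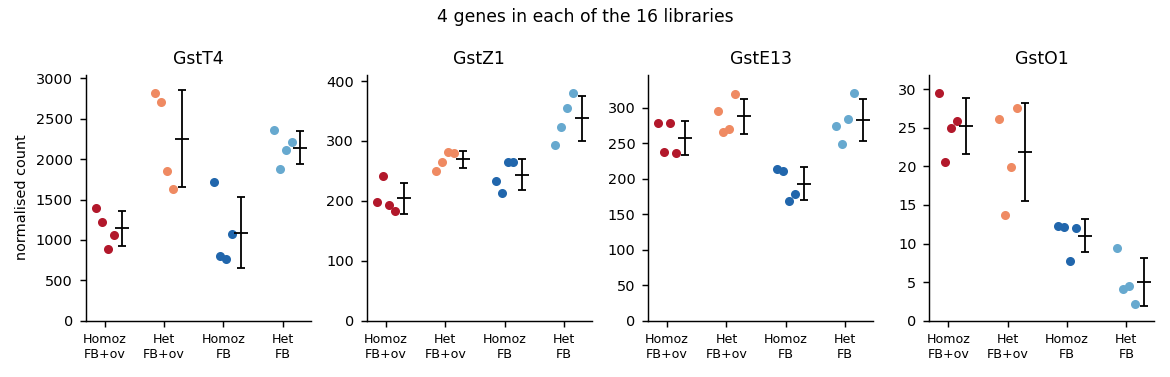
Normalised counts of GstT4, GstZ1, GstE13 and GstO1 in each library of the 4 groups, with the mean ± SD (n = 4) beside the points. GstT4 lies lower in both Homoz groups, at 766 to 1715, than in the Het groups, at 1633 to 2822, and GstO1 is highest in the groups with ovaries.

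Between Homoz FB+ovaries and Het FB+ovaries, 0 of 27 genes passed with limma, where 2.11% of all genes passed. Unadjusted p was under 0.05 for 3 genes, edgeR called 0 and DESeq2 called 2, GstT4 and GstZ1. GstT4 had the smallest adjusted p. It stood at 1399, 1227, 891 and 1066 in Homoz FB+ovaries, against 2822, 2711, 1858 and 1633 in Het FB+ovaries libraries, with no overlap and a log2 fold of -0.96 ± 0.24 (adjusted p = 0.0544). GstZ1 stood at 198, 242, 193 and 183 in Homoz FB+ovaries, against 250.4, 265, 282 and 280.1 in Het FB+ovaries libraries, with no overlap and a log2 fold of -0.40 ± 0.11 (adjusted p = 0.0772). These and GstD7 were the 3 genes without overlap, against 12.1% of all genes. A single GST passed without Homoz FB+ovaries replicate 2 (GstZ1) and without Homoz FB replicate 1 (GstT4). GstT4 and GstZ1 both passed at equal totals, with adjusted p of 0.0367 and 0.0303.

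Replicate numbers paired these libraries too, so blocked values are given. With replicate number as a block, 7 genes passed, where 8.44% of all genes did, and 5 of them were higher in Homoz FB+ovaries, where 4.44% of all genes were. These 5 were GstD10, GstD1, GstD3, GstD4 and GstD6, and the 2 lower genes were GstT4 (adjusted p = 0.0068) and GstZ1 (adjusted p = 0.0369). GstD10 stood at 3802, 589, 1735 and 2276 in Homoz FB+ovaries, against 1135, 397, 505 and 1180.1 in Het FB+ovaries libraries. The groups overlapped, but each Homoz library exceeded the Het library of the same number, by log2 ratios of 1.74, 0.57, 1.78 and 0.95. The log2 fold was 1.26, with an SE of 0.22 with the block (adjusted p = 0.0045) and of 0.60 without it (adjusted p = 0.387).

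GstD1 stood at 15854, 7372, 9202 and 12489.5 in Homoz FB+ovaries, against 8434, 4901, 7934 and 8352 in Het FB+ovaries libraries. Its log2 fold of 0.57 had an adjusted p of 0.0156 with the block and of 0.388 without it. GstD3 (log2 fold 0.98), GstD4 (0.84) and GstD6 (1.83) had adjusted p of 0.0159, 0.0209 and 0.0374 with the block, and of 0.403, 0.331 and 0.57 without it. GstD6 stood at 245, 9.16, 13.3 and 23.5 in Homoz FB+ovaries, against 28.2, 3.44, 1.66 and 14.7 in Het FB+ovaries libraries, so that replicate 1 exceeded the others many times over on both sides. Of the 8 delta genes, 6 were higher in Homoz FB+ovaries in all 4 same-numbered pairs, and 7 had a positive fold, with a median of 1.03 beside -0.00 over all genes. At equal totals 7 were still positive and the median was 0.98. The share of all genes higher in all 4 pairs was not computed, and these neighbouring genes are not separate results. In FB the median of the 8 was 0.28 with 6 positive, it was 0.73 with 7 positive in DESeq2 and 0.71 with 7 positive in edgeR, and it was -0.16 with 2 positive without Homoz FB replicate 1 and Het FB replicate 2.

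**Figure D4:**
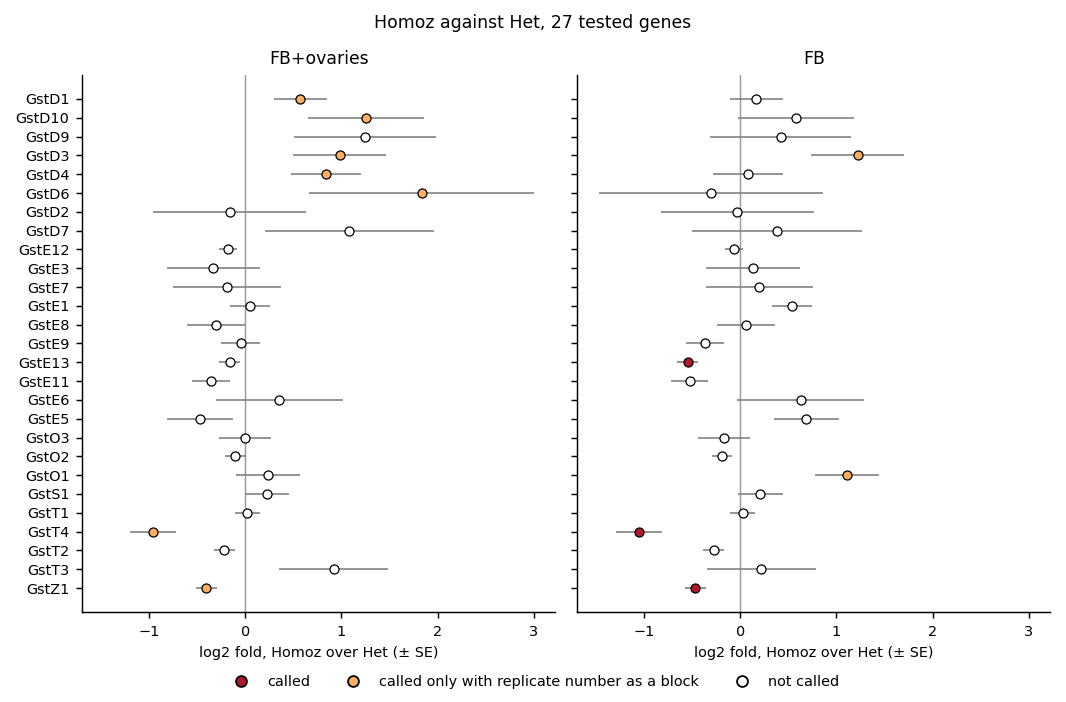
Log2 fold of Homoz over Het libraries (± SE without the block) for the 27 tested genes, in FB+ovaries on the left and FB on the right. Red points passed an adjusted p of 0.05 and orange points passed with replicate number as a block. GstT4 and GstZ1 lie below 0 in both panels, and 7 of 8 GstD genes lie above 0 in FB+ovaries.

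The difference between the genotype folds of FB+ovaries and FB was tested as an interaction. None of the 27 genes passed with limma, where 0.0511% of all genes did, and the smallest adjusted p was 0.99995. Unadjusted p was under 0.05 for 2 genes, GstE13 and GstE5, and edgeR, DESeq2 and the fit with replicate number as a block each called 0. GstE13 had a log2 fold between genotypes of -0.16 ± 0.11 in FB+ovaries and -0.55 ± 0.11 in FB, a difference of 0.39 ± 0.15. The 95% interval of that difference ran from 0.06 to 0.72 before adjustment.

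Arm 3R carries the GstD cluster and GstZ1, and arm 3L the GstO genes, so 12 of the 27 tested genes lie on the chromosome that the balancer covers. In FB, 8.18% of the 3363 genes tested on 3L and 3R were called between genotypes, against 3.30% of the 4461 on other arms. In FB+ovaries these shares were 3.51% and 1.05%. Of the 3 GST calls in FB, GstZ1 lies on 3R, GstE13 on 2R and GstT4 on X. For genes on the third chromosome, sequence differences of the balancer and the mutant allele cannot be told apart.

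Libraries with the same replicate number resembled each other in GST levels across all 4 groups. Of the 27 genes, replicate 1 held the highest value of its group for 17 in Homoz FB+ovaries, 12 in Het FB+ovaries, 15 in Homoz FB and 13 in Het FB. Replicate 2 held the lowest value for 15, 9, 15 and 13 genes in the same order of groups. Of the delta and epsilon classes, the delta genes had the larger deviations in these libraries. Their median deviation from the group mean in replicate 1 was 1.15 in Homoz FB+ovaries, 0.49 in Het FB+ovaries, 0.57 in Homoz FB and 0.59 in Het FB on the log2 scale, and in replicate 2 it was -1.20, -0.78, -1.30 and -0.64. The median deviation of epsilon genes was 0.16 to 0.33 in replicate 1 and -0.39 to -0.06 in replicate 2. Over all genes these medians lay between -0.03 and 0.02. GstD6 and GstD7 had their highest value in replicate 1 of every group. GstD7 reached 208 in Homoz FB replicate 1, against 3.64, 7.80 and 18.0 in the other Homoz FB libraries. The 6 genes listed as hemocyte markers, Cg25C among them, summed to 7589 to 16729 in the 4 libraries numbered 1. In the other 12 they summed to 6054 to 13981. The library numbered 1 had the highest sum in 3 of the 4 groups. Whether each listed gene is read only from hemocytes here was not tested. Gut markers summed to at most 38.2 in any library. The part of these tissues in the GST levels was not tested.

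**Figure D5:**
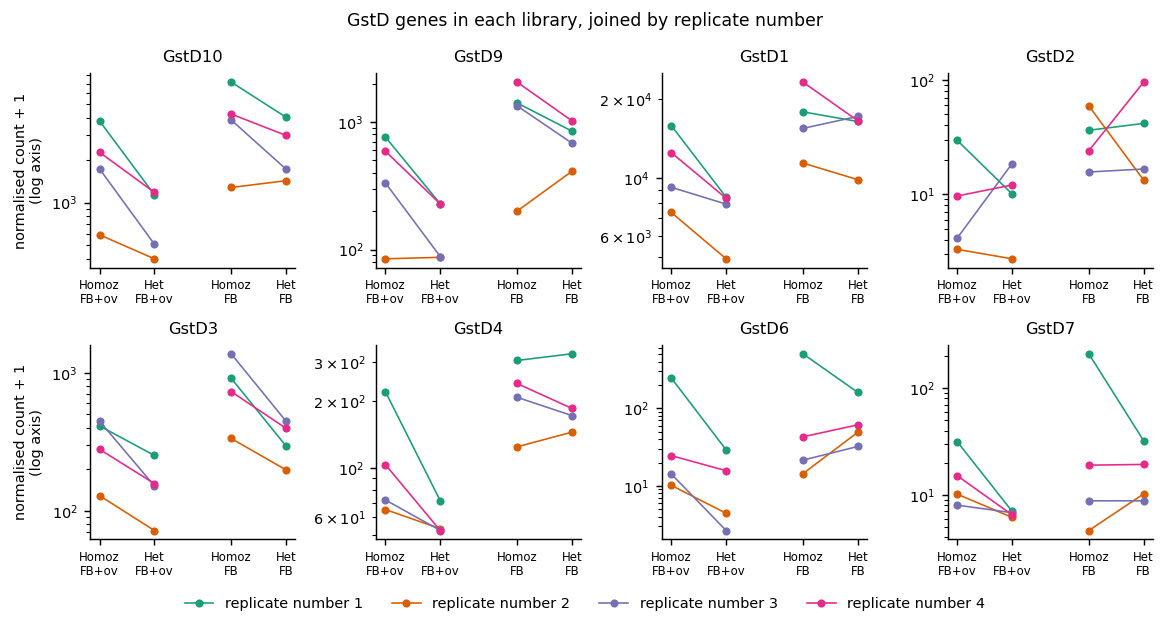
Normalised count plus 1 (log axis) of the 8 tested GstD genes in each library, Homoz beside Het and FB+ovaries left of FB, with lines that join libraries of the same replicate number. Replicate 1 is high and replicate 2 low for most genes, and lines between the FB+ovaries groups mostly fall toward the Het side.

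The other genes of redox metabolism were followed through 52 genes in 6 lists, of which 39 were tested. Between FB+ovaries and FB, 9 of the 39 were higher and 5 lower in Homoz libraries. Of all genes, 19.8% were higher and 13.2% lower there. In Het libraries 7 were higher and 6 lower, where 18.6% of all genes were higher and 10.7% lower. The median log2 folds of the 39 genes were -0.09 in each, beside -0.05 over all genes. The largest folds belonged to enzymes that make or use peroxide. Pxt, a peroxidase needed for egg development in the adult ovary, averaged 115.2 ± 25.4 normalised counts in Homoz FB+ovaries and 1.18 ± 0.257 in Homoz FB libraries (SD, n = 4 each), a log2 fold of 5.71 ± 0.34 (adjusted p = 3.5e-08). Duox, a dual oxidase that produces hydrogen peroxide, averaged 211 ± 41.7 in Homoz FB+ovaries and 8.30 ± 2.52 in Homoz FB libraries, a log2 fold of 4.53 ± 0.33 (adjusted p = 1.2e-07). In Het libraries their log2 folds were 4.89 ± 0.34 and 4.39 ± 0.33. Men-b, a malic enzyme that supplies NADPH, averaged 154 ± 21.5 in Homoz FB+ovaries and 16.5 ± 11.3 in Homoz FB libraries (adjusted p = 6.3e-05), and in Het libraries its log2 fold was 3.21 ± 0.48 (adjusted p = 0.000123).

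Among glutathione genes, CG4829, which belongs to the gamma-glutamyl transferase family that breaks glutathione down outside the cell, averaged 146 ± 54.3 in Homoz FB+ovaries and 23.4 ± 11.5 in Homoz FB libraries (SD, n = 4 each), a log2 fold of 2.62 ± 0.34 (adjusted p = 2.6e-05). Clic and gfzf, proteins with a GST fold or domain outside the named classes, were higher in both genotypes, by 0.84 ± 0.12 and 0.82 ± 0.18 on the log2 scale in Homoz and by 0.80 ± 0.12 and 0.76 ± 0.18 in Het libraries. Jafrac2, a peroxiredoxin of the secretory pathway, was higher by 1.31 ± 0.17 in Homoz (adjusted p = 3.3e-05) and 0.57 ± 0.17 in Het libraries (adjusted p = 0.0226). Prx6005, another peroxiredoxin, and dj-1beta, a redox sensor, were higher in Homoz libraries, by 0.51 ± 0.18 and 0.30 ± 0.09.

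On the deposited scaling, the regulators cnc and Keap1 were both lower with ovaries. cnc averaged 2917 ± 205 in Homoz FB+ovaries and 4016 ± 281 in Homoz FB libraries (SD, n = 4 each), a log2 fold of -0.46 ± 0.08 (adjusted p = 0.000385), and Keap1 had a log2 fold of -0.66 ± 0.15 (adjusted p = 0.0041). In Het libraries their log2 folds were -0.37 ± 0.08 and -0.47 ± 0.15. Cat, catalase, had a log2 fold of -0.33 ± 0.09 in Homoz libraries (adjusted p = 0.0092), which was 0.10 at equal totals, and -0.28 and -0.27 relative to the median of all genes with the deposited scaling and with equal totals. PHGPx, a glutathione peroxidase, and Sod, the cytosolic superoxide dismutase, were lower in Het libraries by -0.34 ± 0.12 and -0.24 ± 0.07. At equal totals, which raise the folds of all genes alike, 16 genes of the lists were called higher and 0 lower in each genotype. The log2 fold of cnc at equal totals was -0.03 in Homoz and 0.02 in Het libraries, and that of Keap1 was -0.23 and -0.09. PHGPx and Sod changed sign in Het libraries, to 0.05 and 0.15. Relative to the median of all genes the folds hardly moved, which such a shift fixes in advance. With either scaling cnc was -0.41 or -0.40 in Homoz and -0.33 or -0.32 in Het libraries, and Keap1 was -0.60 in Homoz and -0.43 in Het libraries. In Het libraries PHGPx was -0.29 and Sod -0.19 with either scaling. With the block 11 were higher and 10 lower in Homoz libraries, where 48% of all genes passed and 23.9% were lower. Without Homoz FB replicate 1 and Het FB replicate 2 the counts in Homoz libraries were 14 and 9. The shares of all genes called at equal totals and without that pair are not given here. GS, CG32495 and Prx5 were listed at 0 in all 16 libraries. The labels do not state how reads with several hits were handled, so these zeros do not show that the transcripts were absent.

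Between genotypes, catalase (Cat), which splits hydrogen peroxide, was the redox gene with the clearest difference. It averaged 14249.6 ± 1169 in Homoz FB+ovaries and 21976 ± 1636 in Het FB+ovaries libraries (SD, n = 4 each), a log2 fold of -0.63 ± 0.09 (adjusted p = 0.0013). In FB it averaged 17895 ± 1020 in Homoz and 26455 ± 1391 in Het libraries, a log2 fold of -0.56 ± 0.09 (adjusted p = 0.0015). In each tissue every Homoz library lay below every Het library, with highest Homoz values of 15602 and 18868 and lowest Het values of 19767 and 24720.4 in FB+ovaries and in FB. Jafrac2 averaged 72.2 ± 13.1 in Homoz FB and 138 ± 23.4 in Het FB libraries, a log2 fold of -0.92 ± 0.17 (adjusted p = 0.0068). In these differences, too, absence of the balancer cannot be told apart from the second mutant copy. The arms of Cat and Jafrac2 are not given here. Cat alone in FB+ovaries, and Cat and Jafrac2 in FB, passed of the 39 genes. Of all genes, 2.11% passed in FB+ovaries and 5.39% in FB. With the block 1 gene of the lists was higher and 4 lower in each tissue. Of all genes, the block called 8.44% in FB+ovaries and 15.1% in FB. In the interaction 0 of the 39 passed with limma, edgeR or DESeq2, and unadjusted p was under 0.05 for 1 gene with limma.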

How the data were processed

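The deposited table holds 1 signal value per gene and library, which is a gene count divided by a library size factor by the authors. Per the submitters' processing notes, reads were trimmed with Trimmomatic 0.36, aligned with STAR 2.5.2b to dm6 and counted with featureCounts of Subread 1.5.0p3. Strand setting, multiple hits and the normalising tool are not stated there. Dividing each library by its smallest step gave whole numbers for 100% of values within a tolerance of 1e-06, so read counts could be recovered, although an automatic test of the step was undecided for 2 libraries (Homoz FB replicate 4 and Het FB+ovaries replicate 1).

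Genes with a mean of at least 10 over the 16 libraries were tested in 1 limma 3.58.1 fit (R 4.3.3) of log2(value + 1) over all 4 groups, with 5 contrasts, Benjamini-Hochberg adjustment over 7824 genes and a threshold of 0.05. Fold changes are on that log2 scale and understate changes of low genes. Alternatives were edgeR 4.0.16 and DESeq2 1.42.0 on recovered reads, pseudocounts of 0.5 and 5, no filter, equal library totals, the 8 libraries compared alone, replicate number as a block, and leaving out each library. Leaving out the libraries that stood apart, or all libraries with number 1 or 2, was chosen after seeing the data. The fits with limma, edgeR and DESeq2 at default settings were run on simulated data that held no replicate effect. The other alternatives were not tested that way.

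Same-numbered libraries deviated together across genes, with correlations of 0.198 to 0.61 between tissues in Homoz libraries, 0.173 to 0.417 between genotypes in FB+ovaries and 0.213 to 0.676 in FB, so blocked values stand beside those results. The labels give no reason for the pairing. Between tissues in Het libraries replicates 2 and 3 had correlations of 0.0151 and 0.04, below the 0.1 required of each pair, and replicates 1 and 4 had 0.284 and 0.225. The block was fitted over all 16 libraries as 1 effect per replicate number, shared by the 4 groups. Every blocked value therefore also assumes this shared effect for the Het tissue pairs, which did not meet the rule.

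The genes and lists were chosen with earlier results of these data known. By the naming rule every GST gene is accounted for and those called in a contrast are given with their values, or the one with the smallest p where none was called. Of each redox list, up to 3 called genes with the smallest p per contrast are named. Other GST genes were singled out after their values were seen. Symbols of all 35 GST genes matched an identifier of the annotation (Ensembl 115), from which coordinates and coding lengths were taken. Protein sequences were not used here, so similarity between members was not measured. Depth was 19022106 to 32755588 reads on genes. Limits derived from a count of 0 cover counting error only.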

Additional observations from a re-analysis of the deposited data

Results flagged for a closer look

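Within the 108 groups of 4 values (27 genes in 4 groups), 11 values of 8 genes lay far from the other 3 of their group. The rule used flags about 1 in 20 groups, or 5.4, when values are independent and normal. Counts were taken here without a log scale and genes share libraries, so 5.4 is no chance expectation for these data. Homoz FB replicate 1 held 4 of the 11. It was high for GstE9 at 551 normalised counts, for GstD6 at 503 and for GstD7 at 208, and low for GstT1 at 1701. Het FB replicate 1 was likewise low for GstT1 at 1771. GstD6 was also high in Homoz FB+ovaries replicate 1, at 245. GstD1 was low in replicate 2 of both Het groups, at 4901 in FB+ovaries and 9842 in FB. GstD4 was high in Het FB+ovaries replicate 1 at 70.4, GstO3 was high in Het FB+ovaries replicate 3 at 2087, and GstO1 was low in Homoz FB replicate 3 at 7.80. No GST gene differed between FB+ovaries and FB in its genotype fold by the test of that difference.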

How the results depend on the processing

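Over the 5 contrasts, 18 calls of single genes were recomputed under 28 alternatives each. Of these 504 values, 401 kept direction and call, 101 kept direction and lost the call, and 2 changed sign. At equal library totals the log2 fold of GstZ1 in the Het tissue contrast came to 0.0662 and that of GstE12 in the Homoz one to 0.0657. That scaling raised the median of all genes to 0.34 and 0.37. Relative to it GstZ1 was -0.27 and GstE12 -0.31, values that such a shift fixes in advance. Which scaling is right was not tested. GstD4 and GstO1 in the Het tissue contrast and GstE13 in the Homoz one kept their call in all 28.

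Between FB+ovaries and FB in Homoz libraries, the count was 7 in the report, 4 at equal totals, 3 with only the 8 libraries compared, 16 with replicate number as a block and 3 to 8 when 1 library was left out. Over the 7824 tested genes, 33% passed there in the report and 48% with the block. In Het libraries it was 8 in the report, 5 without a filter, 5 at equal totals and 3 to 11 when 1 library was left out. There same-numbered libraries did not meet the rule for pairing. The block gave 14 calls, and replicates 1 and 4, but not 2 and 3, correlated best with their own number.

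Between Homoz and Het in FB+ovaries, the count was 0 in the report, 2 at equal totals, 2 with DESeq2, 1 with only the 8 libraries compared, 1 without the pair of FB libraries that stood apart, 2 when the glue library was also left out, 1 without the libraries numbered 1, 7 with the block and 0 to 1 when 1 library was left out. In FB it was 3 in the report, 0 with only the 8 libraries compared, 5 with the block, 5 without the libraries numbered 1 and 1 to 4 when 1 library was left out. The interaction stayed at 0 under every alternative run, with the block and with each library left out. Over the 7824 tested genes, 2.11% passed in FB+ovaries in the report and 8.44% with the block, and in FB 5.39% and 15.1%. Shares of all genes under the other alternatives are not given here, so these counts do not show a change particular to GST genes. The cause of these shifts was not tested.

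Depth limits the lowest genes: the floor of 3 reads is 2.34 to 4.59 normalised counts, so fold changes of genes such as GstO1, GstD2, GstD6 and GstD7 rest on few reads in some libraries.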
